A study of Mus musculus with 18 samples.

Results

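The genes examined were 6 of the 24047 genes in the count table, namely those for proteins that colon goblet cells place in the secreted mucus layer: Muc2, Fcgbp, Clca3, Zg16, Tff3 and Agr2. They were taken by symbol and not by a threshold on their values, but with earlier results of these data known. Clca3 is the symbol the table uses for the calcium-activated chloride channel regulator of goblet cells, which current annotation calls Clca1. The table also has a row named Clca1, which is a different row with far lower counts. RNA-Seq had been run on colon crypt epithelial cells of C57BL/6 mice, with crypts released from the tissue by EDTA and held back on a strainer. The 18 libraries formed 6 groups, each with 3 libraries.

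Genotype label (WT or Ern2-/-) was crossed with microbial state. GF-WT and GF-Ern2-/- mice were germ free, rederived and kept in sterile isolators. COLONIZED-WT and COLONIZED-Ern2-/- mice began germ free, received a single gavage of cecal contents from conventionally raised WT donors, were then housed in sterile cages outside the isolator and were examined at 14 days. CONV-WT and CONV-Ern2-/- mice were raised with their own conventional, specific pathogen-free microbiota. Ern2 encodes ERN2, also called IRE1β, an endoplasmic reticulum (ER) stress sensor of mucosal epithelium. The Ern2-/- genotype was named without a Cre or promoter, and the sources used here give no ages for these mice. A supplementary legend describes RNA-Seq values of colon epithelial cells of CONV mice as those of individual mice. It does not say whether the libraries used here are meant. For GF and COLONIZED mice it is not said whether a library held 1 mouse or several. The p-values below therefore measure the spread between libraries only. The question put to these genes was how their transcripts differed between germ-free mice and mice with microbes, and whether that difference depended on the genotype label.

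Colonic mucus is a net of the gel-forming mucin Muc2, which goblet cells fold in the ER, glycosylate in the Golgi, pack at high density into granules and release into the lumen. FCGBP and CLCA1 are abundant companions of the mucin in this gel, the small lectin ZG16 binds bacterial cell walls, and TFF3 is a trefoil peptide that is secreted with mucin. AGR2 is a protein disulfide isomerase of the ER that is needed for Muc2 to be made, and it is also found in the mucus.

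In mm10 (GRCm38) coordinates, Muc2 lay on chr7:141690340-141754693 on the plus strand with 47 exon blocks, between Muc6, 35.02 kb away, and Muc5ac, 34.28 kb away. Fcgbp, at chr7:28071236-28120862 on the plus strand with 20 exon blocks, and Zg16, at chr7:127050156-127087328 on the minus strand with 8, shared that chromosome. Clca3 lay at chr3:145003817-145032776 on the minus strand, Tff3 at chr17:31125306-31129646 on the minus strand and Agr2 at chr12:35992907-36004087 on the plus strand, with 15, 3 and 8 exon blocks. The targeted gene, Ern2, lay at chr7:122169893-122186207, which is 4.864 Mb from Zg16, 19.5 Mb from Muc2 and 94.05 Mb from Fcgbp. Zg16 spanned 37.17 kb in GENCODE but ended at 127052675 in RefSeq, so its exon length was uncertain.

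The RefSeq promoter table (GRCm38.p6) held 3 of the 6 genes, Muc2, Fcgbp and Agr2, and the 250 bases before each start are shown because Muc2 and Agr2 were called together, in the same direction, in 3 microbe comparisons below, of which Fcgbp was called in 1. Between labels the Muc2 changes were nearer those of Fcgbp than those of Agr2. Capitals mark CAGNTG, the E-box of goblet lineage factors such as ATOH1, on either strand. All 3 lie on the plus strand, at chr7:141690090-141690339, chr7:28070986-28071235 and chr12:35992675-35992924. The windows precede the RefSeq starts, and the one of Agr2, at 35992925, lies inside the gene as located above, which begins at 35992907.
Muc2: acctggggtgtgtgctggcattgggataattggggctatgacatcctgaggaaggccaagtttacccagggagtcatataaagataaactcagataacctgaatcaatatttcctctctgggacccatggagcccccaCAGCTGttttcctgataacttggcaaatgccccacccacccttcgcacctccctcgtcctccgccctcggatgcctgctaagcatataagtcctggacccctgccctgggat
Fcgbp: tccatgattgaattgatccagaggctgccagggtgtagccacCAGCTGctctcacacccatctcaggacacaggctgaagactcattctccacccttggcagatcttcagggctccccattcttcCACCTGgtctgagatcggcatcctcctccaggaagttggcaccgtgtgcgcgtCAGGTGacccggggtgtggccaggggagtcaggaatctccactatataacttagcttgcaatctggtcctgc
Agr2: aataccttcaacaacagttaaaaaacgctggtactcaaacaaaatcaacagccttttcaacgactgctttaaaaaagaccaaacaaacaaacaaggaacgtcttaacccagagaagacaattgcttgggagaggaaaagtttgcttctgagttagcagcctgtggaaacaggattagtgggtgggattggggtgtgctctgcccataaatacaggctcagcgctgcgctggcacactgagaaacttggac
The Muc2 window held 1 match, 112 bases before the start, the Fcgbp window held 3, at 208, 125 and 72 bases, and the Agr2 window held 0. Of 32536 promoters of the table, 44.85% held at least 1 match in a window of this length. The letters ACGT, the core of the XBP1 and ATF6 elements, occurred in the Agr2 window 153 bases before the start and in neither of the others, against 26.91% of all promoters. TATAA, read on both strands like the other motifs, lay 28 bases before the start of both Muc2 and Fcgbp, and for Muc2 again at 174 bases, with no match in the Agr2 window and at least 1 in 22.72% of all promoters. A match in these letters is a description and was not tested as a binding site.

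Library totals ran from 5865619 to 23154481 counts, and 18217 genes had any count. Normalized Ern2 counts ran from 1909 to 3100 in the WT libraries. Of the libraries labelled Ern2-/-, 3 were above the lowest WT library and are called the high-Ern2 libraries here, namely GF-Ern2-/- replicates 1 and 3 (2877 and 3336, the latter above every WT library) and COLONIZED-Ern2-/- replicate 1 (2567). The other 6 held 386 (GF-Ern2-/- replicate 2), 1325 and 1885 (COLONIZED-Ern2-/- replicates 2 and 3) and 998, 1622 and 1487 (CONV-Ern2-/-), so that none was at 0 and COLONIZED-Ern2-/- replicate 3 lay just under the lowest WT library. The log2 change of Ern2 between labels was -1.02 ± 0.29 in CONV (DESeq2 adjusted p = 0.0123), -0.37 ± 0.21 in COLONIZED and -0.07 ± 0.82 in GF mice, none of them called. Since counts were summed over exons, these values do not by themselves show which allele was read, and the fits and correlations that use the high-Ern2 libraries are given with and without them. The authors describe Ern2 expression as enriched in goblet cells, so leaving libraries out by their Ern2 count may also select on goblet transcripts. List counts are given without them only where each arm kept more than 1 library, and list medians or single changes otherwise. CONV-WT replicate 3 and GF-Ern2-/- replicate 2 stood apart from the other libraries of their groups. Summed markers of absorptive colonocytes, of which 7 of 8 were in the table and all 7 exceeded 1 CPM (count scaled to the library total) in every group, reached 19688 CPM in CONV-WT replicate 3 against 2337 and 5506 in replicates 1 and 2, and 27965 in GF-Ern2-/- replicate 2 against 2698 and 4665. They were also high in CONV-Ern2-/-, at 19963 to 31305. The carbonic anhydrase Car1 made up 91.4% of the sum in CONV-WT replicate 3, where without it the other 6 markers summed to 1690 CPM against 827 and 1895. In that library 5 of the 7 markers were at their highest of the group, among them Aqp8 (1392 normalized counts against 132 and 301) and Slc37a2 (2767 against 157 and 84.9), whereas Ceacam20 (329 against 335 and 343) and Cyp2c55 were not. In GF-Ern2-/- replicate 2 Car1 made up 76.7%, the other 6 summed to 6509 CPM against 1650 and 1869, and 6 of the 7 markers were at their highest of the group, Car4 (4676 normalized counts against 5051 and 5571) being the exception. GF-Ern2-/- replicate 2 also stood apart by 10 small intestine and Paneth cell markers, which summed to 2286 CPM there, 257 and 683 in the other libraries of its group and 168 to 1167 over the other 17. Fabp2 made up 83.7% of the sum in this library, and 7 of the 10 markers were at their highest of the group. Among these the ileal bile acid binding protein Fabp6 had 3299 normalized counts against 94.7 and 125, and the Paneth cell lysozyme Lyz1 had 89.2 against 2.98 and 1.04. The Paneth cell defensin Defa24 was at 4.01 there and 0 in the rest of its group. Apoa4 (207 against 249), Gata4 (19.1 against 70.9) and Lct (2.01 against 4.17) were higher in replicate 3. The part of these markers in the differences below was not tested. All 10 epithelial markers were detected in every group, at 10706 to 15227 CPM in sum, whereas the sum of 14 immune markers stayed between 7.06 and 26.6. In CONV-WT replicate 3, 6 of the 10 epithelial markers were at their highest of the group, such as Krt8 (57949 normalized counts against 45765 and 38169) and Vil1 (17969 against 10638 and 9745). The adhesion molecules Cdh1 (6654 normalized counts against 22361 and 18511) and Epcam (8948 against 24648 and 21177), however, were the lowest of their group. The 14 mesenchymal markers summed to 37.2 CPM there against 17.5 in each of the other CONV-WT libraries, 13 of the 14 were at their highest of the group, such as Des (69.4 normalized counts against 5.66 and 4.94), and the sum was 15.7, 29.2 and 37.5 CPM in CONV-Ern2-/- and 15.9 to 40.0 in the GF and COLONIZED libraries. Of these markers 5 exceeded 1 CPM on average in CONV-WT, 7 in CONV-Ern2-/- and 2 in every other group, and their part in the results was not tested. Y-linked transcripts were found in 0 of 3 libraries of GF-WT and in 3 of 3 of CONV-Ern2-/-, with 2 of COLONIZED-WT, 1 of CONV-WT and 2 each of GF-Ern2-/- and COLONIZED-Ern2-/-, so sex was not balanced between groups.

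All 6 transcripts were abundant. In its highest library Muc2 was the gene ranked 2 by count, Fcgbp and Clca3 each reached rank 4, Agr2 rank 8, Zg16 rank 10 and Tff3 rank 94. Together the 6 genes took between 0.359% and 3.85% of all counts in a library. Between the lowest and highest library the normalized count differed 42.5-fold for Clca3, 24.2-fold for Zg16, 22.9-fold for Muc2, 11.6-fold for Fcgbp, 9.25-fold for Tff3 and 7.80-fold for Agr2. RNA came from whole crypts, so fewer goblet cells and less transcript per goblet cell cannot be told apart.

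**Figure D1:**
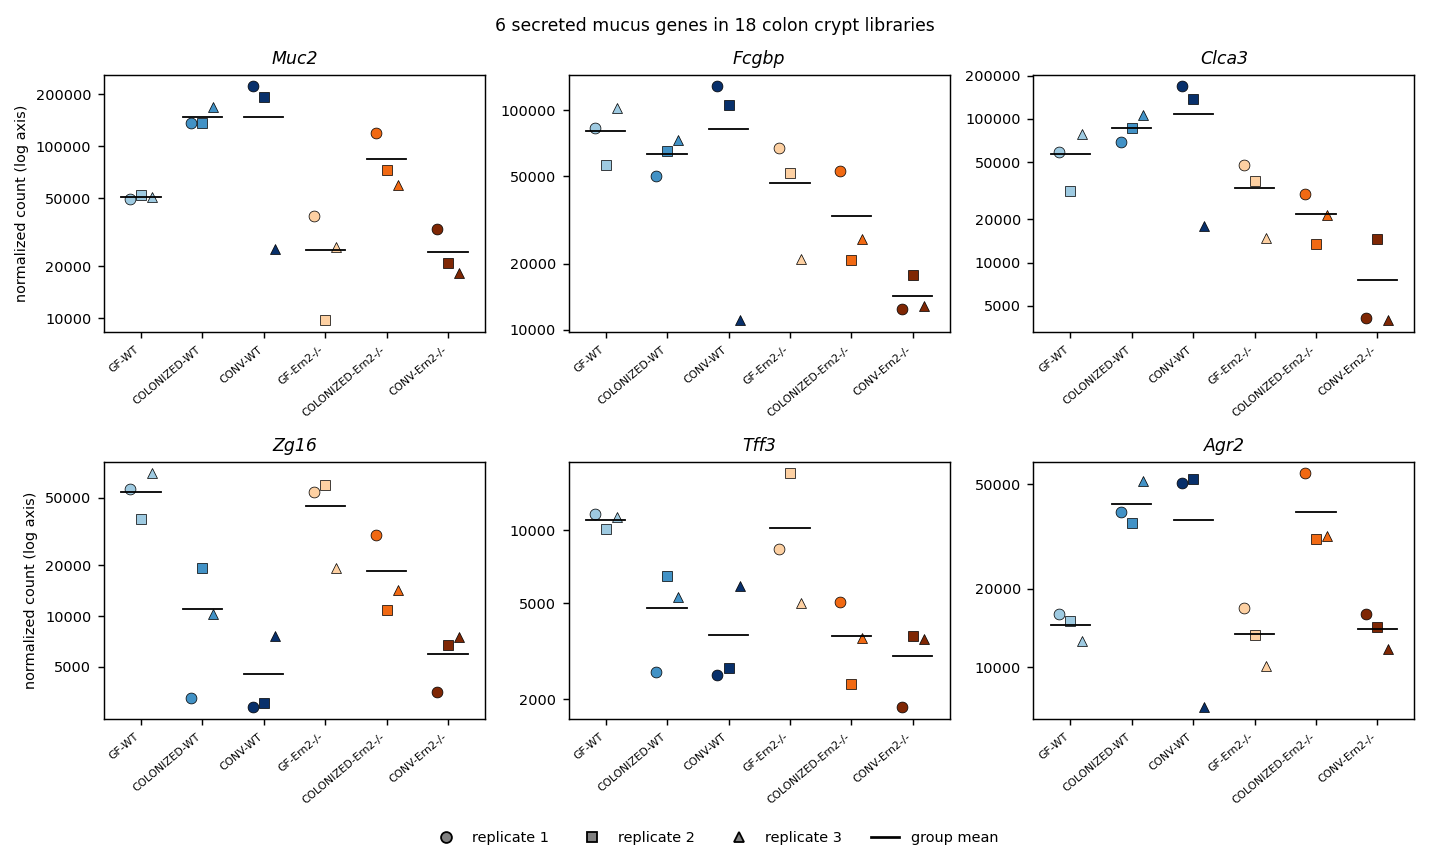
Normalized counts (log axis) of the 6 genes in each library, by group. Points are libraries (circle, square and triangle for replicates 1, 2 and 3) and bars are group means. CONV-WT replicate 3 (triangle) lies below its group for Muc2, Fcgbp, Clca3 and Agr2 and above it for Zg16 and Tff3.

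Muc2, the mucin itself, was tightly held in GF-WT, where replicates 1, 2 and 3 had 49017, 51960 and 50429 normalized counts. COLONIZED-WT libraries had 136757, 136133 and 168763. CONV-WT libraries had 223342, 194319 and 25213, so that the first and second were the highest of all 18 libraries and replicate 3 fell below every GF-WT library. Under the Ern2-/- label, germ-free libraries held 39100, 9756 and 25790, all under the GF-WT range. After colonization the values were 119239, 73110 and 59339, above GF-WT and below COLONIZED-WT, and CONV-Ern2-/- libraries were back at 32893, 21049 and 18426. By mean, the order was CONV-WT (147625 ± 107000, SD, n = 3), COLONIZED-WT (147217 ± 18661), COLONIZED-Ern2-/- (83896 ± 31373), GF-WT (50468 ± 1472), GF-Ern2-/- (24882 ± 14693) and CONV-Ern2-/- (24123 ± 7708). Ranges of neighbours overlapped only at the top of this order, between CONV-WT and COLONIZED-WT, and at its foot, between GF-Ern2-/- and CONV-Ern2-/-.

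Fcgbp, the IgG Fc binding protein of mucus, had 82675, 55981 and 102348 normalized counts in GF-WT and 50343, 64887 and 73200 in COLONIZED-WT, which overlapped. In CONV-WT it had 128513 and 105399 in replicates 1 and 2 and 11048 in replicate 3, the lowest value of any library. GF-Ern2-/- libraries had 67101, 51545 and 20973 and COLONIZED-Ern2-/- libraries had 52687, 20781 and 25812. CONV-Ern2-/- libraries lay at 12344, 17666 and 12814, below every other group except for CONV-WT replicate 3. Unlike Muc2, Fcgbp thus had a lower mean after colonization than without microbes under either label.

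Clca3, whose protein is a zinc-dependent metalloprotease that can cut Muc2 and loosen the gel, had 59010, 31687 and 78944 normalized counts in GF-WT. COLONIZED-WT libraries had 68971, 85914 and 106375, whereas CONV-WT libraries had 168903, 137578 and 17953. With the Ern2-/- label they were 48055, 36778 and 14788 in germ-free mice, 30039, 13389 and 21371 after colonization, and 4075, 14695 and 3973 in CONV mice. The order of the means therefore ran CONV, COLONIZED, GF in WT and the opposite way, GF, COLONIZED, CONV, with the Ern2-/- label, although neighbouring groups overlapped at every step. CONV-Ern2-/- replicate 2 stood above the other 2 libraries of its group.

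Zg16 was highest without microbes, at 56139, 37316 and 69929 normalized counts in GF-WT and 54383, 60021 and 19357 in GF-Ern2-/-. COLONIZED-WT libraries had 3297, 19170 and 10354 and CONV-WT libraries had 2889, 3071 and 7615, all lower than any GF-WT library. COLONIZED-Ern2-/- libraries had 30026, 10819 and 14256, which reached into the GF-Ern2-/- range, and CONV-Ern2-/- libraries had 3552, 6788 and 7541. The antibacterial lectin was thus the one transcript of the 6, together with Tff3, whose means were lower in all 4 groups with microbes than in both germ-free groups.

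Tff3, the least abundant of the 6 by count and a much shorter transcript than Muc2, had 11704, 10102 and 11375 normalized counts in GF-WT and 8362, 17177 and 5014 in GF-Ern2-/-. COLONIZED-WT libraries held 2595, 6497 and 5284, against 2518, 2697 and 5856 in CONV-WT. In COLONIZED-Ern2-/- the values were 5050, 2310 and 3595, and in CONV-Ern2-/- they were 1858, 3648 and 3543. The 4 groups with microbes overlapped one another.

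Agr2, the ER isomerase, had 15955, 15090 and 12628 normalized counts in GF-WT and 16866, 13352 and 10142 in GF-Ern2-/-. Colonized mice had 39330, 35492 and 51409 with the WT label and 54989, 30920 and 31833 with the Ern2-/- label, ranges that overlapped each other and lay above both germ-free groups. CONV-WT libraries had 50576, 52204 and 7054, the last being the lowest of all 18, and CONV-Ern2-/- libraries had 16051, 14271 and 11768, within the range of the germ-free groups. Per kilobase of exon, the mean normalized count in GF-WT was 43326 for Zg16, 22435 for Tff3, 14971 for Clca3, 11276 for Agr2, 7653 for Fcgbp and 7081 for Muc2, with the Zg16 value subject to its uncertain exon length. On the same scale the COLONIZED-WT means were 32593 for Agr2, 23057 for Clca3, 20656 for Muc2, 9720 for Tff3, 8703 for Zg16 and 5984 for Fcgbp. Muc2 and Fcgbp, the longest transcripts, were therefore lower on this scale than by count.

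**Figure D2:**
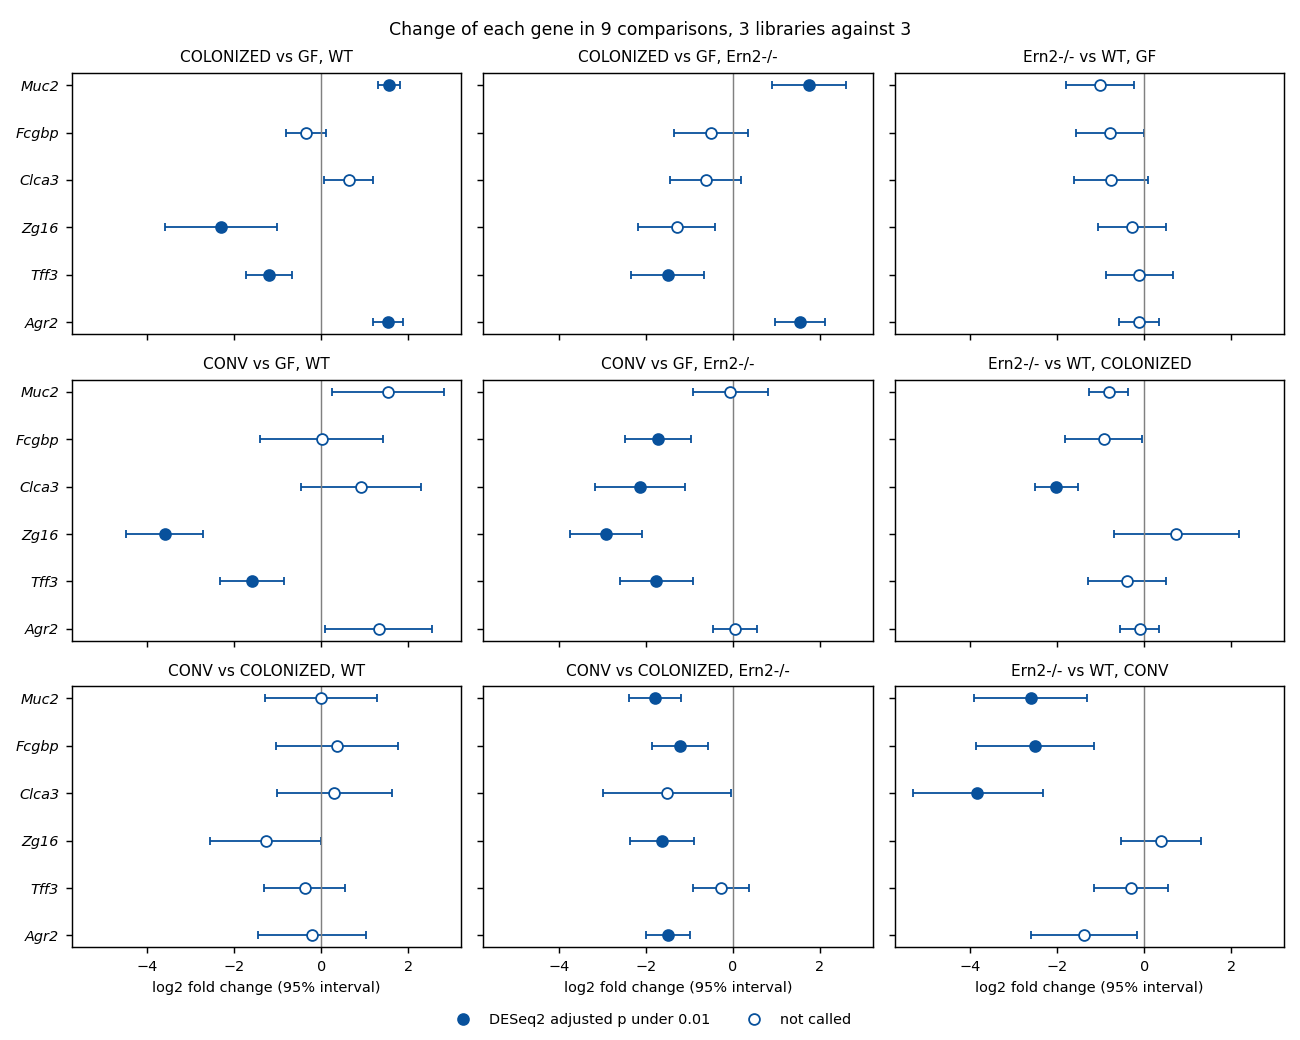
Log2 fold changes of the 6 genes with 95% intervals in each of 9 comparisons, from fits of 3 libraries against 3. Filled points passed a DESeq2 adjusted p of 0.01. Zg16 and Tff3 lie left of 0 and Muc2 and Agr2 right of 0 in colonized against germ-free mice under both labels, and Muc2, Fcgbp and Clca3 lie left of 0 for Ern2-/- against WT in each microbial state.

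The first question was what 14 days of colonization did to these transcripts in WT mice. Muc2 rose 2.94-fold and Agr2 rose 2.91-fold, whereas Zg16 fell 4.95-fold and Tff3 fell 2.29-fold. On the log2 scale the changes were 1.55 ± 0.13 for Muc2 (SE; DESeq2 adjusted p = 7.63e-29), 1.54 ± 0.17 for Agr2 (DESeq2 adjusted p = 2.5e-16), -2.31 ± 0.66 for Zg16 (DESeq2 adjusted p = 0.00326) and -1.20 ± 0.27 for Tff3 (DESeq2 adjusted p = 0.000177). Fcgbp (-0.35 ± 0.23) and Clca3 (0.63 ± 0.29) did not pass the test. The groups did not overlap for the same 4 genes. DESeq2 called 18.3% of all genes tested in this comparison, 46.6% did not overlap, and 4 of the 6 members met each rule. Muc2 and Agr2 also passed with edgeR's quasi-likelihood test, at adjusted p = 0.00453 and 0.0051, which Zg16 (0.026) and Tff3 (0.0269) did not, where edgeR called 4.94% of all genes. In 1 fit of all 18 libraries Zg16 alone kept its call, and Muc2 (DESeq2 adjusted p = 0.0354), Agr2 (0.0117) and Tff3 (0.0480) lost theirs. With sex as a covariate the calls of Zg16 (-1.50, DESeq2 adjusted p = 0.322) and Tff3 (-0.76, DESeq2 adjusted p = 0.249) were lost. Zg16 was also not called without GF-WT replicate 1 (DESeq2 adjusted p = 0.0263), 2 (0.0107) or 3 (0.0432) or COLONIZED-WT replicate 3 (0.0335), and without GF-WT replicate 3 Tff3 was not called (0.0414) while Clca3 was (0.96, 0.00428).

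In CONV-WT against GF-WT mice, Zg16 fell 12.1-fold and Tff3 fell 3.02-fold. Their log2 changes were -3.60 ± 0.45 (DESeq2 adjusted p = 6.58e-13) and -1.59 ± 0.37 (DESeq2 adjusted p = 0.000388), against edgeR adjusted p = 0.019 and 0.0433. DESeq2 called 11.0% of all genes here and 2 of the 6, and edgeR called 0.175% of all genes and 0 of the 6. At an unadjusted p under 0.05 DESeq2 had 4 of the 6 and 4256 of 17125 genes, and edgeR had 2 of the 6 and 3621 of 12603 genes. Zg16 and Tff3 were also the only members whose groups did not overlap, against 36.2% of all genes. Muc2 (1.54 ± 0.65, adjusted p = 0.0817), Agr2 (1.32 ± 0.63, adjusted p = 0.132), Clca3 (0.92 ± 0.70, adjusted p = 0.395) and Fcgbp (0.01 ± 0.72, adjusted p = 0.996) were not called. For each of these 4, CONV-WT replicate 3 was far below the other CONV-WT libraries. Without it Muc2 rose by 2.05 (DESeq2 adjusted p = 4.35e-51), Agr2 by 1.82 (6.59e-30) and Clca3 by 1.44 (0.000326), while Fcgbp, at 0.54 (0.114), still did not pass and Zg16 was at -4.20. That is 5 of 6 called, where 20.8% of all genes were. Tff3 lost its call without GF-WT replicate 3 (DESeq2 adjusted p = 0.0109) or CONV-WT replicate 2 (0.0121).

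Between CONV-WT and COLONIZED-WT mice DESeq2 called 0 of the 6 genes, and 0.119% of all genes, and edgeR called 0 of the 6 and 0 of 12650 genes. Zg16 alone had an unadjusted DESeq2 p under 0.05, at a log2 change of -1.27 ± 0.65 (DESeq2 adjusted p = 0.554). Over all genes 1234 of 17008 had such an unadjusted p. None of the 6 had groups without overlap, against 16.4% of genes. The 95% interval for Muc2 ran from -1.30 to 1.28, wide enough to hold a change of either sign of more than 2-fold. Leaving out CONV-WT replicate 3, Fcgbp (0.88, DESeq2 adjusted p = 0.00015) and Clca3 (0.80, DESeq2 adjusted p = 0.00252) were higher in CONV-WT, and Muc2 was at 0.49 (0.0197), where 1.59% of all genes were called.

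**Figure D3:**
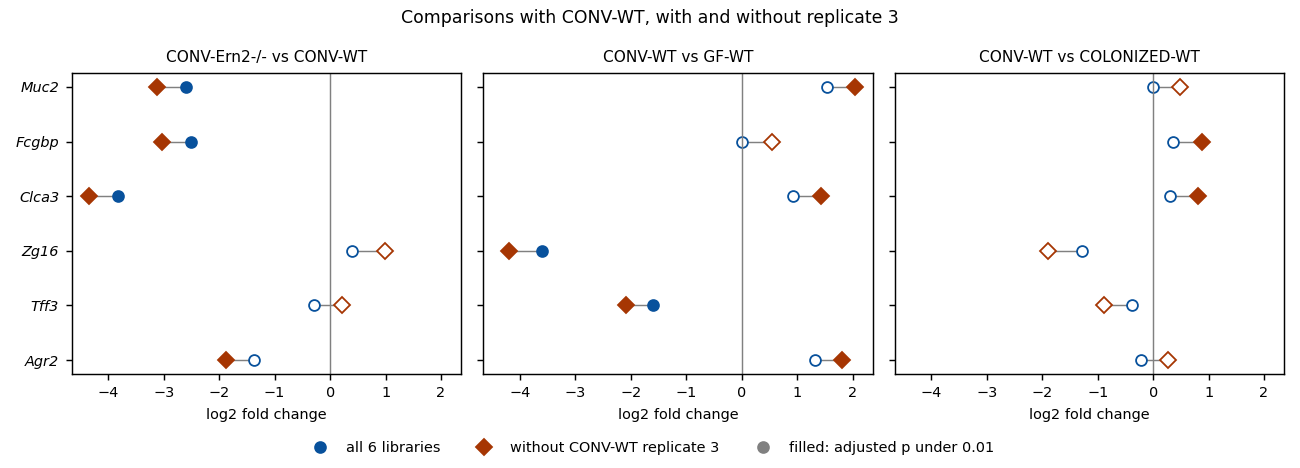
Log2 fold changes in the 3 comparisons that use CONV-WT, with all libraries (circles) and without CONV-WT replicate 3 (diamonds). Filled symbols passed a DESeq2 adjusted p of 0.01. Muc2 moved from 1.54 to 2.05 against GF-WT and from -2.61 to -3.11 for CONV-Ern2-/- against CONV-WT.

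With the Ern2-/- label, colonization was again accompanied by higher Muc2 and Agr2 and lower Tff3. Muc2 rose 3.37-fold (log2 1.75 ± 0.44, DESeq2 adjusted p = 0.00132), Agr2 rose 2.91-fold (1.54 ± 0.29, adjusted p = 1.03e-05) and Tff3 fell 2.80-fold (-1.49 ± 0.43, adjusted p = 0.00759). Zg16 (-1.28 ± 0.45, adjusted p = 0.0382), Clca3 (-0.62 ± 0.41) and Fcgbp (-0.50 ± 0.44) were not called. That is 3 of 6 with DESeq2, against 7.17% of all genes, and 0 with edgeR, against 0.216%. The lowest edgeR adjusted p of the 6 was 0.031, for Agr2. An unadjusted edgeR p under 0.05 was found for 4 of the 6 and 3277 of 12519 genes. Muc2 and Agr2 had groups that did not overlap, against 33.1% of genes. In 1 fit of all 18 libraries Muc2 (DESeq2 adjusted p = 0.0147), Agr2 (0.0115) and Tff3 (0.0121) all lost their calls, and with sex as a covariate Muc2 (0.183) and Tff3 (0.0189) did. Leaving out the 3 high-Ern2 libraries left a single GF-Ern2-/- library, replicate 2, assumed to vary like the others, and set it against 2. Muc2 was then at 2.74, Agr2 at 1.21, Fcgbp at -1.17, Clca3 at -1.10, Zg16 at -2.28 and Tff3 at -2.56. That fit called 10.5% of all genes, but with 1 library in an arm its member calls are not counted. Without GF-Ern2-/- replicate 2 instead, the library high in colonocyte and small intestine markers, Muc2 was at 1.38 (adjusted p = 0.000239) and Agr2 at 1.55 (2.59e-05), and Tff3 lost its call at -0.86 (0.0558). Calls were also lost without COLONIZED-Ern2-/- replicate 1 (Muc2, DESeq2 adjusted p = 0.0509) or 2 (Muc2, 0.0165, and Tff3, 0.117), without COLONIZED-Ern2-/- replicate 3 (Tff3, 0.0683) and without GF-Ern2-/- replicate 1 (Tff3, 0.0167), whereas Zg16 was called without GF-Ern2-/- replicate 3 (-1.65, 0.0018) or COLONIZED-Ern2-/- replicate 1 (-1.84, 0.00241).

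CONV-Ern2-/- mice differed from GF-Ern2-/- mice in another set of members. Zg16 fell 7.50-fold (log2 -2.91 ± 0.42, DESeq2 adjusted p = 1.95e-09), Clca3 fell 4.40-fold (-2.14 ± 0.53, adjusted p = 0.00184), Tff3 fell 3.38-fold (-1.76 ± 0.43, adjusted p = 0.00167) and Fcgbp fell 3.27-fold (-1.71 ± 0.39, adjusted p = 0.000491). Muc2 (-0.05 ± 0.44, 95% interval -0.92 to 0.81) and Agr2 (0.06 ± 0.26, -0.45 to 0.56) did not pass. The 4 called genes were also the 4 without overlap between groups, where DESeq2 called 4.33% of all genes and 24.6% did not overlap. With edgeR, which called 0.0325% of all genes, none of the 6 was called, the lowest adjusted p being 0.032 for Zg16. At an unadjusted p under 0.05 edgeR had 4 of the 6 and 2433 of 12318 genes. Without GF-Ern2-/- replicates 1 and 3, the high-Ern2 libraries, which again left replicate 2 alone, Muc2 turned to 1.30 and Clca3 was at -2.29. That fit called 3.18% of all genes, but with 1 library in an arm its member calls are not counted. In 1 fit of all 18 libraries Clca3 (DESeq2 adjusted p = 0.0110) and Fcgbp (0.0318) lost their calls. Zg16 was the only member called in every fit that left out 1 library. Fcgbp was lost without GF-Ern2-/- replicate 1 (DESeq2 adjusted p = 0.031) or CONV-Ern2-/- replicate 3 (0.0252), Clca3 was lost without GF-Ern2-/- replicate 1 (0.476) or 2 (0.207) or CONV-Ern2-/- replicate 1 (0.0245) or 3 (0.0668), and Tff3 was lost without the same libraries, at 0.0114, 0.0186, 0.0191 and 0.0178.

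Against COLONIZED-Ern2-/- mice, CONV-Ern2-/- mice had lower levels of 4 members. Muc2 fell 3.47-fold (log2 -1.79 ± 0.31, DESeq2 adjusted p = 4.71e-07), Zg16 fell 3.08-fold (-1.62 ± 0.38, adjusted p = 0.000566), Agr2 fell 2.79-fold (-1.48 ± 0.26, adjusted p = 1.27e-06) and Fcgbp fell 2.32-fold (-1.21 ± 0.33, adjusted p = 0.00373). Clca3 (-1.51 ± 0.75, adjusted p = 0.151) and Tff3 (-0.27 ± 0.33) were not called. DESeq2 called 8.59% of all genes and 4 of these 6, the same 4 whose groups did not overlap, against 35.9% of genes. No member passed with edgeR, which called 0.282% of all genes and had the lowest adjusted p of the 6, 0.0219, for Agr2. At an unadjusted p under 0.05 edgeR had 5 of the 6 and 3895 of 12414 genes. Muc2 and Agr2 were called in all 6 fits that left out 1 library. Without COLONIZED-Ern2-/- replicate 1, the high-Ern2 library of this pair of groups, Fcgbp (-0.70, adjusted p = 0.0545) and Zg16 (-1.07, adjusted p = 0.0277) lost their calls, which left 2 of 6 against 3.29% of all genes. In 1 fit of all 18 libraries all 4 calls were lost, at DESeq2 adjusted p = 0.0204 for Muc2, 0.0251 for Agr2, 0.0419 for Zg16 and 0.146 for Fcgbp. The calls of Fcgbp and Zg16 were also lost without CONV-Ern2-/- replicate 1 (DESeq2 adjusted p = 0.146 and 0.0792), Fcgbp without replicate 3 (0.046) and Zg16 without replicate 2 (0.101), the library without which Clca3 was called (-2.42, 6.56e-12). Colonocyte markers summed to 7756 to 15059 CPM in COLONIZED-Ern2-/- and 19963 to 31305 in CONV-Ern2-/-, and their part in these differences was not tested.

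The genotype labels were compared within each microbial state. In germ-free mice DESeq2 called 0 of the 6 genes and 0.0349% of all genes, and edgeR called 0 of the 6 and 0 of 12604 genes. At an unadjusted p under 0.05, DESeq2 had 2, Muc2 (log2 -1.02 ± 0.40) and Fcgbp (-0.79 ± 0.40), and edgeR had 0. Over all genes these were 254 of 17168 with DESeq2 and 194 of 12604 with edgeR. Clca3 was at -0.77 ± 0.43, Zg16 at -0.28 ± 0.40, and Tff3 and Agr2 both at -0.11. Muc2 was the only member with no overlap, its highest GF-Ern2-/- library (39100) lying under its lowest GF-WT library (49017), as did 6.10% of genes in either direction. Of the germ-free Ern2-/- libraries 2 of 3 were high in Ern2. Setting only replicate 2, the library high in colonocyte and small intestine markers, against GF-WT gave Muc2 at -2.35, called by DESeq2 with no other member, where 4.53% of all genes were called. That spread came from GF-WT alone, whose Muc2 counts had a coefficient of variation of 2.92%, so the call compares 1 library with that group and not the labels. Without replicate 2 Muc2 was at -0.65 and not called. With sex as a covariate Fcgbp alone was called (-1.92, DESeq2 adjusted p = 0.00166), although no GF-WT library had Y-linked transcripts.

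After colonization Clca3 was 4.05-fold lower with the Ern2-/- label than in WT (log2 -2.02 ± 0.26, DESeq2 adjusted p = 4.36e-12), and it was called in all 6 fits that left out 1 library, with changes from -2.33 to -1.77. It lost its call in 1 fit of all 18 libraries (-2.01, DESeq2 adjusted p = 0.0994). Muc2 (-0.82 ± 0.23, adjusted p = 0.0178), Fcgbp (-0.93 ± 0.45, adjusted p = 0.198), Tff3 (-0.40 ± 0.46), Zg16 (0.74 ± 0.73) and Agr2 (-0.11 ± 0.23, 95% interval -0.56 to 0.34) were not called. DESeq2 called 1.37% of all genes. Groups did not overlap for Clca3 and Muc2, both lower with the Ern2-/- label, against 30.4% of genes. Clca3 missed the threshold with edgeR (adjusted p = 0.0659), which called 0.00786% of all genes and 0 of the 6. At an unadjusted p under 0.05 edgeR had 3 of the 6 and 2786 of 12722 genes. Without COLONIZED-Ern2-/- replicate 1, the high-Ern2 library, Muc2 (-1.15, DESeq2 adjusted p = 5.34e-10) and Fcgbp (-1.43, 5.91e-12) were called beside Clca3 (-2.33, 6.73e-21), and 5.26% of all genes were. That library held the highest normalized count of its group for each of the 6 members, so leaving it out lowers the group mean of each. With sex as a covariate Muc2 was also called (-0.85, DESeq2 adjusted p = 0.00769).

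In conventional mice the Ern2-/- label went with 14.2-fold less Clca3 (log2 -3.83 ± 0.76, DESeq2 adjusted p = 5.64e-05), 6.09-fold less Muc2 (-2.61 ± 0.66, adjusted p = 0.00349) and 5.71-fold less Fcgbp (-2.51 ± 0.69, adjusted p = 0.00941). Agr2 (-1.38 ± 0.62, adjusted p = 0.205), Tff3 (-0.30 ± 0.43) and Zg16 (0.39 ± 0.47) did not pass. Here DESeq2 called 3.03% of all genes. With edgeR the adjusted p was 0.143 for Clca3, 0.19 for Muc2 and 0.215 for Fcgbp, so 0 of 6 were called, as were 0 of 12128 genes. At an unadjusted p under 0.05 edgeR had 3 of the 6 and 1865 of 12128 genes. Only Clca3 did not overlap between the groups, against 21.3% of genes, and for Muc2, Fcgbp and Agr2 CONV-WT replicate 3 lay within or below the CONV-Ern2-/- range. Leaving that library out gave Muc2 -3.11 (DESeq2 adjusted p = 1.11e-23), Fcgbp -3.04 (2.87e-33), Clca3 -4.34 (1.87e-05) and Agr2 -1.87 (4e-17), and left Zg16 at 1.00 (0.0173), with 12.4% of all genes called. Without CONV-WT replicate 1 instead, Muc2 (DESeq2 adjusted p = 0.0539), Fcgbp (0.116) and Clca3 (0.147) all lost their calls. Muc2 and Fcgbp were also lost without CONV-WT replicate 2 (0.0727 and 0.12) or CONV-Ern2-/- replicate 2 (0.0249 and 0.0184) or 3 (0.0565 and 0.0872), and Fcgbp without CONV-Ern2-/- replicate 1 (0.063). With sex as a covariate Clca3 (-4.48, DESeq2 adjusted p = 0.0719) and Fcgbp (-3.17, 0.0122) lost their calls and Muc2 kept its own (-3.21, 0.00703). None of the 3 CONV-Ern2-/- libraries was high in Ern2. Colonocyte markers were at 2337, 5506 and 19688 CPM in CONV-WT and 19963 to 31305 in CONV-Ern2-/-, and all 3 CONV-Ern2-/- libraries but 1 CONV-WT library had Y-linked transcripts.

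The difference between the labels in their response to microbes was tested with an interaction term. For CONV against GF, DESeq2 called 0 of the 6 genes and 0.177% of all genes, and edgeR called 0 of the 6 and 0 of 12900 genes. Clca3 alone had an unadjusted p under 0.05 in both tools, with an interaction of -3.07 ± 1.00 on the log2 scale (DESeq2 adjusted p = 0.153). Over all genes 1181 of 17764 had such a p with DESeq2 and 957 of 12900 with edgeR. Fcgbp was at -1.73 ± 0.90, Muc2 at -1.60 ± 0.87 and Agr2 at -1.27 ± 0.74. Without CONV-WT replicate 3, Agr2 (-1.76, DESeq2 adjusted p = 1.37e-05) and Fcgbp (-2.25, 0.00288) were called, while Muc2 was at -2.10 (0.0131) and Clca3 at -3.58 (0.0124), and 2.23% of all genes were called. Without the high-Ern2 libraries, which left 1 GF-Ern2-/- library, Clca3 was at -3.21, Fcgbp at -1.87, Agr2 at -1.25 and Muc2 at -0.23. Without CONV-Ern2-/- replicate 2, Clca3 was called (-3.98, DESeq2 adjusted p = 0.00799). For COLONIZED against GF, again 0 of the 6 were called by either tool, where DESeq2 called 0.0280% of all genes and edgeR called 0 of 13045. DESeq2 had 1 at an unadjusted p under 0.05, Clca3 at -1.25 ± 0.58 (adjusted p = 0.849), and edgeR had 0. Over all genes these were 1030 of 17884 with DESeq2 and 947 of 13045 with edgeR. The Muc2 interaction was 0.21 ± 0.53, with a 95% interval from -0.83 to 1.25, and the Agr2 interaction was 0.01 ± 0.36, from -0.71 to 0.72. Without the 3 high-Ern2 libraries, which left 1 GF-Ern2-/- library, replicate 2, the Muc2 interaction was 1.20. That library had 9756 normalized Muc2 counts, against 39100 and 25790 in the other GF-Ern2-/- libraries. The fit called 3.41% of all genes, but it cannot separate the label from that library, so member calls are not counted.

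Counts of 2 genes in one library can be divided without any scaling between libraries, and these ratios are described here without a test. The ratio of Muc2 to Agr2 in WT libraries was 3.07, 3.44 and 3.99 (GF), 3.48, 3.84 and 3.28 (COLONIZED) and 4.42, 3.72 and 3.57 (CONV). It was 2.32, 0.731 and 2.54 in GF-Ern2-/-, 2.17, 2.36 and 1.86 in COLONIZED-Ern2-/- and 2.05, 1.48 and 1.57 in CONV-Ern2-/-. All 9 WT libraries, from 3.07 to 4.42, thus lay above all 9 libraries labelled Ern2-/-, from 0.731 to 2.54, whatever their microbes. CONV-WT replicate 3 stood with the other WT libraries on this ratio, and the 3 high-Ern2 libraries stood with the Ern2-/- ones at 2.32, 2.54 and 2.17. This was 1 of the 15 ratios between the 6 genes, and none of the 6 genes separated the labels by its own normalized count. Among all pairs of 10826 genes 0.0827% separated the labels in this way, among ratios of a gene to Agr2 0.0277%, among ratios to Muc2 0.0739%, and among single genes 0.111%.

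The ratio of Muc2 to Zg16 followed the microbes. It was 0.873, 1.39 and 0.721 in GF-WT and 0.719, 0.163 and 1.33 in GF-Ern2-/-. With microbes it was 41.5, 7.10 and 16.3 in COLONIZED-WT, 77.3, 63.3 and 3.31 in CONV-WT, 3.97, 6.76 and 4.16 in COLONIZED-Ern2-/- and 9.26, 3.10 and 2.44 in CONV-Ern2-/-. Each of the 6 germ-free libraries lay below each of the 12 libraries with microbes, which also held, in the opposite direction, for Zg16 to Agr2 (1.91 to 5.54 against 0.0571 to 1.08). Such a separation was common among genes, at 5.73% of all pairs, 5.11% of single genes, and 7.85%, 4.63% and 1.09% of ratios of a gene to Zg16, Agr2 and Muc2.

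Fcgbp and Clca3, the companions of Muc2 in the gel, kept a nearly fixed ratio within the WT mice with microbes. COLONIZED-WT libraries had 0.730, 0.755 and 0.688, and CONV-WT libraries had 0.761, 0.766 and 0.615, although the single counts of CONV-WT replicate 3 were far lower. GF-WT libraries had 1.40, 1.77 and 1.30 and GF-Ern2-/- libraries had 1.40, 1.40 and 1.42. COLONIZED-Ern2-/- libraries had 1.75, 1.55 and 1.21 and CONV-Ern2-/- libraries had 3.03, 1.20 and 3.23. The 6 WT libraries with microbes were thus the only ones with more Clca3 than Fcgbp counts, 0.615 to 0.766 against 1.20 to 3.23 in the other 12. This split was chosen after the values were seen, and 1.40% of all pairs of genes, 1.23% of single genes and 0.0554% of ratios of a gene to Fcgbp showed it. Clca3 to Zg16 made the same split, at 2.36 to 58.5 against 0.527 to 2.16, as did 1.82% of ratios of a gene to Clca3 and 0.176% of ratios to Zg16.

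**Figure D4:**
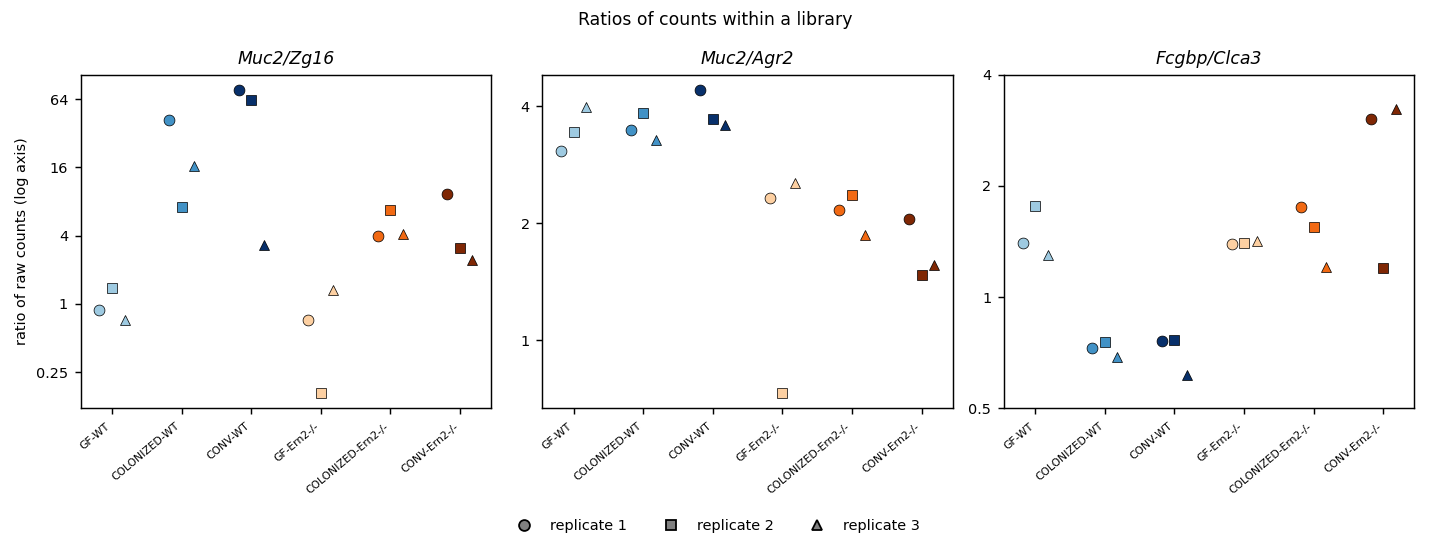
Ratios of raw counts within each library (log axes) for Muc2 to Zg16, Muc2 to Agr2 and Fcgbp to Clca3, with circle, square and triangle for replicates 1, 2 and 3. Muc2/Agr2 lies at 3.07 to 4.42 in WT and 0.731 to 2.54 in Ern2-/- libraries, and Fcgbp/Clca3 lies below 1 only in WT mice with microbes.

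Over the 18 libraries the smallest log2 ranges among the 15 ratios were those of Fcgbp to Clca3 (2.39), Zg16 to Tff3 (2.51) and Muc2 to Agr2 (2.60), and the largest was that of Muc2 to Zg16 (8.89). These 3 pairs also had the highest correlations of log2 normalized counts, with Pearson r of 0.92, 0.89 and 0.88 over 18 libraries and 0.92, 0.91 and 0.87 over the 15 without the high-Ern2 libraries. For deviations from the group means r was 0.93, 0.91 and 0.87, and on that measure Fcgbp and Agr2, at 0.92, ranked between the first and second of these pairs. The libraries share groups, depth differences and the marker shifts described above, so these are descriptions only. Zg16 to Tff3 was 4.80, 3.69 and 6.15 in GF-WT and 1.15, 1.14 and 1.30 in CONV-WT, since Zg16 changed more than Tff3. Muc2 and Zg16 had r of -0.36, and -0.39 over the 15 libraries.

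As shares of the counts of the 6 genes together, the mix of transcripts changed with microbes. Muc2 made up 19.7% ± 5.35 (SD, n = 3) in GF-WT, 41.7% ± 3.28 in COLONIZED-WT and 42.4% ± 5.33 in COLONIZED-Ern2-/-, and Zg16 made up 20.1% ± 1.53, 3.03% ± 2.26 and 8.85% ± 1.58. Agr2 made up 11.9% ± 1.49 in COLONIZED-WT and 9.58% ± 0.894 in CONV-WT, and 19.9% ± 0.910 in COLONIZED-Ern2-/- and 20.4% ± 2.21 in CONV-Ern2-/-, so that with microbes no Ern2-/- library had an Agr2 share as low as a WT library. Clca3 made up 24.4% ± 1.38 in COLONIZED-WT and 10.9% ± 2.48 in COLONIZED-Ern2-/-. The high-Ern2 library of COLONIZED-Ern2-/- lay between the other 2 of its group for Muc2 (40.8% against 48.3% and 38.0%) and Clca3 (10.3% against 8.85% and 13.7%), above them for Zg16 (10.3% against 7.15% and 9.13%) and below them for Agr2 (18.8% against 20.4% in both). In CONV-WT replicate 3 Zg16 was 10.2% and Tff3 7.84%, against 0.501% and 0.437% in replicate 1. All 6 genes together took 3.85%, 3.37% and 0.499% of the library in CONV-WT and 0.440%, 0.496% and 0.359% in CONV-Ern2-/-.

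**Figure D5:**
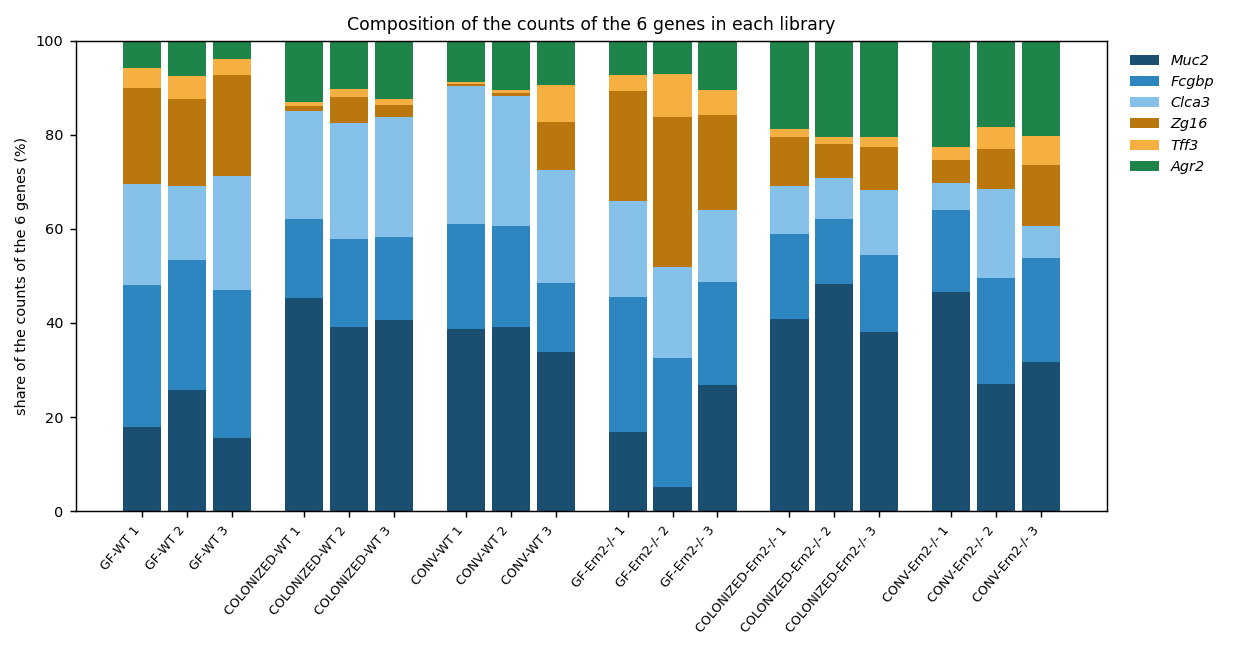
Share of the counts of the 6 genes (%) taken by each gene, with 1 bar per library. Muc2 takes 15.5% to 25.7% of the bar in GF-WT and 39.1% to 45.4% in COLONIZED-WT, and Agr2 takes 18.3% to 22.7% in the 6 Ern2-/- libraries with microbes.

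Other genes of the mucus pathway are given from 4 lists, by the count that DESeq2 called, beside the share of all genes called in the same fit. The lists were chosen with earlier results of these data known, so these shares are descriptions and not a test. In COLONIZED-WT against GF-WT, 27 of the 63 listed genes tested (42.9%) were called, against 18.3% of all genes. By list, 13 of 20 tested genes for other secreted goblet products rose and 1 fell, with a list median of 1.10 on the log2 scale against -0.01 over all genes. Among them were the resistin-like antibacterial protein Retnlb (4.66 ± 0.31), the lectin Itln1 (3.48 ± 0.34) and Spink4 (2.62 ± 0.28), whereas Lypd8, which binds flagellated bacteria, fell (-0.87 ± 0.25). Of 9 goblet lineage transcription factors 3 rose, led by Spdef (1.37 ± 0.19), and Klf4 fell (-0.80 ± 0.19). Of 24 genes for mucin folding, granule packing, release and cross-linking 4 rose, such as the ER factor Xbp1 (0.41 ± 0.12), and 4 fell, such as the transglutaminase Tgm3 (-2.50 ± 0.58), which cross-links Muc2. The list for anion and bicarbonate transport, called the anion list here, also holds Kcnma1 and Lrrc26 of the BK potassium channel. Of its 10 genes 1 fell, the potassium channel subunit Lrrc26 (-0.49 ± 0.15), and no anion transporter was called. With edgeR the counts were 4 higher among secreted products, 1 higher among factors and 0 in the other 2 lists. That is 5 of 62 (8.1%), against 4.94% of all genes. In CONV-WT against GF-WT, 16 of 63 (25.4%) were called, against 11.0% of all genes. There, 7 of 20 secreted products rose, again with Retnlb (6.25 ± 0.56) and Itln1 (5.40 ± 0.57), and 1 fell, 3 factors rose, and Best2, a bicarbonate channel of goblet cells, fell (-3.46 ± 0.56) with the exchanger Slc26a3 (-1.90 ± 0.49). Folding and packing had 1 higher and 2 lower, and edgeR called 0 in all 4 lists and 0.175% of all genes.

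With the Ern2-/- label, colonization went with calls for 4 of the 61 listed genes tested (6.56%), close to the 7.17% of all genes called. DESeq2 called 0 higher and 1 lower of 18 secreted products (Lypd8, -1.16 ± 0.28), 1 lower of 24 folding and packing genes (Tgm3, -3.51 ± 0.38), 1 lower of 10 genes of the anion list (Slc26a3, -1.89 ± 0.41) and 1 higher of 9 factors (Spdef, 1.18 ± 0.33). The edgeR test called 0 of 60 listed genes, against 0.216% of all genes. Leaving out the high-Ern2 libraries left 1 GF-Ern2-/- library, replicate 2, which was high in colonocyte and small intestine markers, so calls are not counted. List medians were then -0.80 for secreted products, -0.17 for folding and packing, 0.11 for the anion list and 0.24 for factors. With all libraries they were 0.27, -0.13, 0.17 and 0.17. The interaction was called for 0.0280% of all genes and for 1 gene of the 4 lists, Itln1 (-3.45 ± 0.73, DESeq2 adjusted p = 0.00752), so a difference between labels was not shown for the other listed genes. Without the high-Ern2 libraries, which left the same single GF-Ern2-/- library, the interaction was -4.71 for Itln1 and -2.35 for the uroguanylin gene Guca2b. Guca2b had 858 normalized counts in that library against 162 and 216 in the other GF-Ern2-/- libraries. In CONV-Ern2-/- against GF-Ern2-/- mice 2 secreted products rose, Retnlb (3.06 ± 0.33) and the ribonuclease Ang4 (4.00 ± 0.57), and 3 fell, while 3 folding and packing genes, 2 genes of the anion list (Best2, -5.02 ± 0.44, and Kcnma1, -1.93 ± 0.39) and 2 factors fell, the Golgi calcium pump Atp2c2 (-2.58 ± 0.32) among the packing genes. Together 12 of 61 listed genes were called, against 4.33% of all genes. With edgeR 0 of 60 listed genes were called, against 0.0325% of all genes. With GF-Ern2-/- replicate 2 alone in its arm Ang4 was at 4.57. List medians were then 0.37 for secreted products, -0.31 for folding and packing, -0.43 for the anion list and -0.01 for factors. With all libraries they were 0.40, -0.43, -0.32 and -0.70. In the interaction of CONV against GF, DESeq2 called 0.177% of all genes and 3 genes of the 4 lists, Itln1 (-4.96 ± 0.86), Retnlb (-3.20 ± 0.69) and the factor Gfi1 (-2.61 ± 0.41), all of them lower with the Ern2-/- label. There edgeR called 0 of all 12900 genes tested. Without the high-Ern2 libraries, which again left GF-Ern2-/- replicate 2 alone in its arm, the interactions of these 3 genes were -5.90, -3.49 and -2.29, and that of Guca2b was -2.21. CONV-Ern2-/- against COLONIZED-Ern2-/- mice had 3 higher and 2 lower secreted products, 1 higher and 5 lower folding and packing genes, 1 higher (Slc26a3) and 4 lower genes of the anion list, Kcnma1 among them, and 4 lower factors, including Atoh1 (-1.01 ± 0.26). The edgeR test called 1 of 60 listed genes, against 0.282% of all genes. Those 20 calls of 61 became 8 of 60 without the high-Ern2 library, as the share of all genes went from 8.59% to 3.29%, and Atoh1 (-0.75, DESeq2 adjusted p = 0.0349) was then not called. Between CONV-WT and COLONIZED-WT, 3 folding and packing genes were called, against 0.119% of all genes, 2 higher and Tgm3 lower (-2.68 ± 0.58), and none of the other lists. There edgeR called 0 of all 12650 genes tested.

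Between labels, none of the 4 lists had a call in germ-free mice with all libraries, where DESeq2 called 0.0349% of all genes and edgeR 0 of 12604. With GF-Ern2-/- replicate 2, the library high in colonocyte and small intestine markers, as the whole arm, Ern2, whose count had set that library apart, was at -2.56. List medians were then 0.06 for secreted products, -0.47 for folding and packing, -0.21 for the anion list and -0.66 for factors. In colonized mice 12 of 62 listed genes (19.4%) were called, against 1.37% of all genes, and 9 of 19 secreted products were lower with the Ern2-/- label, including Retnlb (-4.45 ± 0.78), Ang4 (-4.31 ± 0.27) and Itln1 (-3.34 ± 0.37), with a list median of -0.65 against -0.00 over all genes. Spdef (-0.92 ± 0.20) and Foxa3 (-0.63 ± 0.16) of the factors and Syt7 (-0.76 ± 0.20), a calcium sensor of exocytosis, of the packing genes were lower, and 0 genes of the anion list were called. Without the high-Ern2 library the 12 calls of 62 became 25, all lower, as the share of all genes went from 1.37% to 5.26%, and Retnlb, Ang4, Itln1, Spdef, Foxa3 and Syt7 were among them, as was Ern2, whose counts had chosen the library left out. That library was also the highest of its group for each of the 6 members. In conventional mice 27 of 62 (43.5%) were called, against 3.03% of all genes, and 8 of 19 secreted products were lower and 3 higher. Itln1 (-4.85 ± 0.60) and Retnlb (-4.30 ± 0.54) were among the lower ones, and the higher ones, Clca6 (2.63 ± 0.54), Lypd8 (1.59 ± 0.31) and the guanylin gene Guca2a (1.20 ± 0.23), are known from surface colonocytes, whose markers were also high in CONV-Ern2-/-. Among the factors 6 of 9 were lower, such as Gfi1 (-2.97 ± 0.35), Spdef (-2.09 ± 0.36) and Atoh1 (-1.56 ± 0.26), as were 7 of 24 folding and packing genes, such as Rap1gap (-1.63 ± 0.23), and 2 of 10 genes of the anion list (Kcnma1, -2.35 ± 0.43, and the carbonic anhydrase-related Car8, -1.52 ± 0.37), while the chloride-bicarbonate exchanger Slc26a3 was higher (2.26 ± 0.36). Slc26a3 also stands in the colonocyte marker list. The edgeR count was 1 lower secreted product in colonized mice, against 0.00786% of all genes, and 0 in conventional mice, where edgeR called 0 of all 12128 genes tested.

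The transcripts most like each member were ranked by Pearson r of log2 normalized counts over 18 libraries among 10846 genes. Muc2 was most like Sidt1 (r = 0.97), Hspg2 (0.95) and Slc2a10 (0.95). Fcgbp was most like the sulfhydryl oxidase Qsox1 (0.93), then Abo (0.92) and Hepacam2 (0.92), and Clca3 was most like Ramp1, Lypd6b and Tpsg1 (0.93 each). For Zg16 the first were Sowahc (0.91), Gyk (0.91) and the iron exporter Slc40a1 (0.90), and for Tff3 they were Spink3 (0.91), Mat2b (0.90) and Atg7 (0.89). Agr2 was most like the KDEL receptor Kdelr3 (0.95), B4galt4 (0.95) and the ER-to-Golgi cargo receptor Lman1 (0.94). The first 3 genes depended on the measure, since with Spearman's rho 1 of 3 was shared for Muc2 and 0 of 3 for Fcgbp, Clca3 and Agr2. Over the 15 libraries without high Ern2, 3 of 3 were shared for Muc2, 0 for Fcgbp and 2 for each of the other members.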

How the data were processed

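The authors sequenced crypt RNA as 75-cycle single-end reads from a stranded mRNA kit, aligned them with STAR in the VIPER pipeline (mm10 per the submitters' processing notes), and deposited raw counts per gene. Tool versions, gene annotation and whether counting used strand were not given in the sources used here. Each comparison was fitted with DESeq2 1.42.0 (R 4.3.3) on its own 6 libraries, and each interaction on 12, with default size factors and independent filtering and without shrinkage. Calls required an adjusted p (Benjamini-Hochberg, over all genes tested) under 0.01. All tests were two-sided. edgeR 4.0.16 (quasi-likelihood) was the main alternative. The fitting was tested on simulated counts. Levels are counts divided by DESeq2 size factors of all 18 libraries, likeness and correlations use log2 of these plus 1, with a mean of at least 50 for likeness, and ratios use raw counts. Named genes were all 6 members, the 3 nearest to each by r, genes called from 4 pathway lists, Ern2 and the neighbours of Muc2. Cell type markers were also named, as examples from their lists, to describe single libraries. Members and lists were chosen with earlier results of these data known. Repeating the list counts, correlations and likeness without the high-Ern2 libraries was chosen after seeing the data. No libraries were identical (highest r between any 2, 0.9818), and none were dropped or imputed in the main fits. Promoters and loci came from RefSeq GRCm38.p6 and GENCODE.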

Additional observations from a re-analysis of the deposited data

How the results depend on the processing

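Library totals of 5865619 to 23154481 counts and 3 libraries per group limit the precision. Of 66 changes (6 genes in 9 comparisons and 2 interactions), all 66 kept their direction and call with TMM size factors and 65 without independent filtering, which ended the call of Fcgbp between the CONV genotypes (DESeq2 adjusted p = 0.0125). With edgeR 47 kept both and 19 lost their call, with 1 fit of all 18 libraries 52 kept both, and with sex as a covariate 53 did. Of 36 group means, 35 moved by less than the replicate SD with counts scaled to library totals. The causes of the changes below were not tested.

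With edgeR, whose shares of all genes are given above, the number of members called was 2 for COLONIZED-WT against GF-WT. It was 0 for both CONV and COLONIZED genotype comparisons, CONV-WT against GF-WT and all 3 microbe comparisons with the Ern2-/- label. With sex as a covariate it was 1 for the CONV genotype comparison (with 1.88% of all genes called, 3.03% before), 1 for the GF one (0.0540%, 0.0349% before), 2 for the COLONIZED one (1.03%, 1.37% before), 2 for COLONIZED-WT against GF-WT (1.92%, 18.3% before) and 1 for COLONIZED-Ern2-/- against GF-Ern2-/- (7.13%, 7.17% before). With 1 fit of all 18 libraries it was 0 for the COLONIZED genotype comparison (0.180%), 1 for COLONIZED-WT against GF-WT (8.98%), 2 for CONV-Ern2-/- against GF-Ern2-/- (6.68%, 4.33% before), 0 for COLONIZED-Ern2-/- against GF-Ern2-/- (8.52%) and 0 for CONV-Ern2-/- against COLONIZED-Ern2-/- (3.32%, 8.59% before), so the share of all genes rose in 2 of these comparisons as members lost calls. Without the 3 high-Ern2 libraries it was 3 (COLONIZED genotype, with 5.26% of all genes called) and 2 (CONV-Ern2-/- against COLONIZED-Ern2-/-, 3.29%). The other fits without them had GF-Ern2-/- replicate 2 as the only library of an arm, so their counts are left out here.

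In no comparison did all 3 same-numbered pairs of libraries have deviations correlated above 0.1 (r from -0.28 to 0.6334 over all pairs), so they were taken to share only a number, although in 3 of 9 comparisons all 3 pairs had an r above 0. A replicate block gave 2 members called in the COLONIZED genotype comparison, where it added Muc2 (DESeq2 adjusted p = 0.0023) and called 1.55% of all genes, and kept 57 of 66 changes. It ended 3 calls, of Zg16 in COLONIZED-WT against GF-WT (0.0288, with 16.3% of all genes called) and in CONV-Ern2-/- against COLONIZED-Ern2-/- (0.135, 7.35%) and of Tff3 in COLONIZED-Ern2-/- against GF-Ern2-/- (0.0135, 7.20%). With the block the sign turned for Fcgbp in CONV-WT against GF-WT (-0.38), Muc2 in CONV-Ern2-/- against GF-Ern2-/- (0.11), Fcgbp and Clca3 in CONV-WT against COLONIZED-WT (-0.094 and -0.087) and Agr2 in the COLONIZED interaction (-0.028).

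Signs that turned with sex as a covariate were those of Tff3 in the CONV genotype comparison (0.25), Fcgbp in CONV-WT against GF-WT (-0.48), Agr2 in CONV-Ern2-/- against GF-Ern2-/- (-0.11), Muc2 in CONV-WT against COLONIZED-WT (0.10) and Fcgbp in the COLONIZED interaction (0.30). Without the 3 high-Ern2 libraries they were Zg16 (0.16) and Tff3 (0.65) between GF genotypes, Muc2 in CONV-Ern2-/- against GF-Ern2-/- (1.30), Tff3 in CONV-Ern2-/- against COLONIZED-Ern2-/- (0.035) and Agr2 in the COLONIZED interaction (-0.31). With 1 fit of 18 it was Muc2 in CONV-WT against COLONIZED-WT (0.0040). None of the changes that turned had passed the DESeq2 test.

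Leaving out 1 library at a time, members called ranged from 0 to 4 while 0.989% to 12.4% of all genes were called (CONV genotype), 1 to 3 with 0.617% to 5.26% (COLONIZED genotype), 1 to 5 with 4.31% to 20.8% (CONV-WT against GF-WT), 3 to 4 with 9.22% to 20.2% (COLONIZED-WT against GF-WT), 1 to 4 with 1.90% to 7.14% (CONV-Ern2-/- against GF-Ern2-/-), 1 to 4 with 3.42% to 10.4% (COLONIZED-Ern2-/- against GF-Ern2-/-), 0 to 2 with 0.00596% to 1.59% (CONV-WT against COLONIZED-WT), 2 to 4 with 3.29% to 18.4% (CONV-Ern2-/- against COLONIZED-Ern2-/-) and 0 to 2 with 0.0220% to 2.23% (CONV interaction), and stayed at 0 between GF genotypes and in the COLONIZED interaction. Both the highest member count and the highest share came without CONV-WT replicate 3 in the CONV genotype comparison, CONV-WT against GF-WT, CONV-WT against COLONIZED-WT and the CONV interaction. The log2 changes whose sign turned ranged, for Agr2, from -0.42 to 0.062 (COLONIZED genotype), -0.29 to 0.058 (GF genotype), -0.11 to 0.25 (CONV-Ern2-/- against GF-Ern2-/-), -0.56 to 0.28 (CONV-WT against COLONIZED-WT) and -0.31 to 0.20 (COLONIZED interaction). For Fcgbp they ranged from -0.13 to 0.88 (CONV-WT against COLONIZED-WT), -0.48 to 0.54 (CONV-WT against GF-WT) and -0.65 to 0.21 (COLONIZED interaction), and for Clca3 from -0.18 to 0.80 (CONV-WT against COLONIZED-WT). For Muc2 they ranged from -0.44 to 0.43 (CONV-Ern2-/- against GF-Ern2-/-), -0.44 to 0.49 (CONV-WT against COLONIZED-WT) and -0.17 to 0.69 (COLONIZED interaction). For Tff3 they ranged from -0.53 to 0.035 (CONV-Ern2-/- against COLONIZED-Ern2-/-), -0.51 to 0.21 (CONV genotype), -0.74 to 0.22 (GF genotype), -0.61 to 0.34 (COLONIZED interaction) and -0.50 to 0.44 (CONV interaction), and for Zg16 from -0.58 to 0.076 (GF genotype).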
